A study of Mus musculus with 16 samples.

Results

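The miR-15/16 family is a group of mature microRNAs that share 1 seed, the stretch of bases 2 to 8 with which a microRNA pairs to its target messenger RNAs. The 5 members miR-15a-5p, miR-15b-5p, miR-16-5p, miR-195a-5p and miR-322-5p were taken by their miRBase identifiers, MIMAT0000526, MIMAT0000124, MIMAT0000527, MIMAT0000225 and MIMAT0000548, from a table of 853 microRNAs. The table holds identifiers without names, so the pairing of identifier and name comes from the definition of the family and not from the deposited files. All 5 rows were present, and 4 passed the filter on low counts that preceded testing. miR-195a-5p, with 36 reads in all libraries together, did not.

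Small RNA was sequenced from conventional type 1 dendritic cells (cDC1s), the dendritic cells specialised in presenting captured antigen to CD8 T cells, sorted from the spleen of C57BL6 mice. The 16 libraries form 4 groups of 4: Xbp1 KO (called Xbp1-deficient here), the wild type of that line, Xbp1-Ire1 KO (compound-deficient) and the wild type of that line. The kinase and ribonuclease IRE1 senses unfolded proteins in the endoplasmic reticulum. It activates the transcription factor XBP1 by splicing its messenger RNA, and further RNAs can be cut by it. The study asks how cDC1s differ when XBP1 is lost and when IRE1 is lost with it. In which cells or at which age the genes were deleted, whether animals were pooled and whether the libraries of a group came from separate mice is not given in the sources used here. P-values therefore measure the spread between these libraries, which may be technical. The genotypes could not be checked in a table without messenger RNAs. For want of names for the identifiers, the 16 microRNAs listed as markers of other cell types were not examined either, so the cDC1 label was not checked. Total counts ranged from 175165 to 1403393 per library and were higher in the Xbp1 line, with group means of 825763 and 1065596, than in the compound line, with 518607 and 524042.

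MicroRNAs of this family repress, among others, the messenger RNAs of the survival protein BCL2 and of cyclins, and are known as brakes on cell division. In blood cells they are best known from chronic lymphocytic leukaemia, where the locus of miR-15a and miR-16 is often deleted. A mature microRNA is cut from a hairpin within a longer primary transcript, so members of 1 cluster share a transcript but can be processed and decay separately.

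The members are shown 5′ to 3′ because what they share and where they part decides how their reads can be told apart. The sequences are RefSeq's for the build GRCm38.p6, capitals mark the seed, and all 5 members matched a mature entry.
miR-15a-5p: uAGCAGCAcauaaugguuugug
miR-15b-5p: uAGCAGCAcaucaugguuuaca
miR-16-5p: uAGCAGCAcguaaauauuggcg
miR-195a-5p: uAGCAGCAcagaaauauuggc
miR-322-5p: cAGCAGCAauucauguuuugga
The seed AGCAGCA was the same in all 5. Counted from 1 at the 5′ end, miR-16-5p and miR-195a-5p differed in 2 of 21 bases, G10A and U11G, written with the miR-16-5p base first. miR-15a-5p and miR-15b-5p differed in 4 of 22 bases, A12C, G20A, U21C and G22A with the miR-15a-5p base first. miR-15b-5p and miR-16-5p differed in 8 of 22. A read of the abundant miR-16-5p with both changes, at bases 10 and 11, could therefore be counted as miR-195a-5p. A read with only 1 of them is equally far from both sequences. The few reads of miR-195a-5p are uncertain for this reason. How the authors treated mismatched reads is not given in the sources used here.

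In RefSeq, 10 of 1679 mature mouse microRNA names carry this seed (0.596%). The 5 that are not members are miR-497a-5p, miR-195b, miR-6342, miR-6353 and miR-6419, and for these no value is given because their identifiers are not paired with names. miR-103-3p and miR-107-3p hold the same 7 letters at bases 1 to 7, which is 1 base nearer to the 5′ end and gives them another seed.

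The mature miR-16-5p is made from a pair of loci, each beside a miR-15 gene. miR-15a-5p lies at chr14:61632075-61632096 and a copy of miR-16-5p at chr14:61631936-61631957, both on the minus strand in introns of Dleu2, a long noncoding RNA gene. miR-15b-5p lies at chr3:69009775-69009796 and the other copy of miR-16-5p at chr3:69009918-69009939, both on the plus strand in introns of Smc4, which encodes a subunit of condensin. In the GENCODE M21 annotation of GRCm38, 8 transcripts of Dleu2 and 5 of Smc4 span these sites, and 0 have an exon there. miR-195a-5p lies at chr11:70235062-70235082 on the plus strand and miR-322-5p, on the X chromosome, at chrX:53054306-53054327 on the minus strand, and GENCODE M21 lists no gene other than the microRNA over either. The hairpins of both miR-16 copies are shown with the mature strand in capitals, because they hold the same mature sequence within different arms and loops, so that the counts of miR-16-5p sum over both loci.
Mir16-1: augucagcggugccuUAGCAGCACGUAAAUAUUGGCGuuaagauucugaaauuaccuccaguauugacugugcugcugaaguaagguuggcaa
Mir16-2: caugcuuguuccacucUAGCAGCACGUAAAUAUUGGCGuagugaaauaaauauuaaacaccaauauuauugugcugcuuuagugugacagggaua

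The letters CUGCAG, known from sites where IRE1 cuts RNA, were searched for in the 5 family hairpins of the RefSeq table, Mir15b, Mir16-1, Mir16-2, Mir195a and Mir322. The hairpin of miR-15a was not searched. This motif reads the same on both strands. It was found in 1 of the 5 hairpins searched, that of miR-322, and in 75 of all 1005 hairpins (7.46%). In the miR-322 hairpin, shown with the mature strand in capitals, it spans bases 20 to 25 and ends inside the mature strand, which starts at base 23.
Mir322: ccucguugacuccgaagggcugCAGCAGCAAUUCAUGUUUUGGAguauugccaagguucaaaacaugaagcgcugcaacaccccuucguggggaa
A match of letters is a description of the sequence and does not show that the hairpin is cut.

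In wild-type and deficient cDC1s alike the family was nearly all miR-16-5p. Levels are given as CPM, the counts per 1000000 on library sizes scaled by the TMM method, and since mature strands of 21 to 22 bases are counted whole, levels of members can be set side by side, although ligation can favour some sequences. miR-16-5p ranked between 11 and 12 among the 853 microRNAs of each library, miR-15a-5p between 67 and 82, miR-15b-5p between 64 and 81, miR-322-5p between 151 and 252 and miR-195a-5p between 233 and 434. The 5 members together made up 1.69% to 2.57% of all counts of a library. Within the family miR-16-5p took 94.1% to 96.0% of the reads, miR-15a-5p 1.81% to 3.10%, miR-15b-5p at most 3.21%, miR-322-5p at most 0.230% and miR-195a-5p at most 0.0550%.

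**Figure D1:**
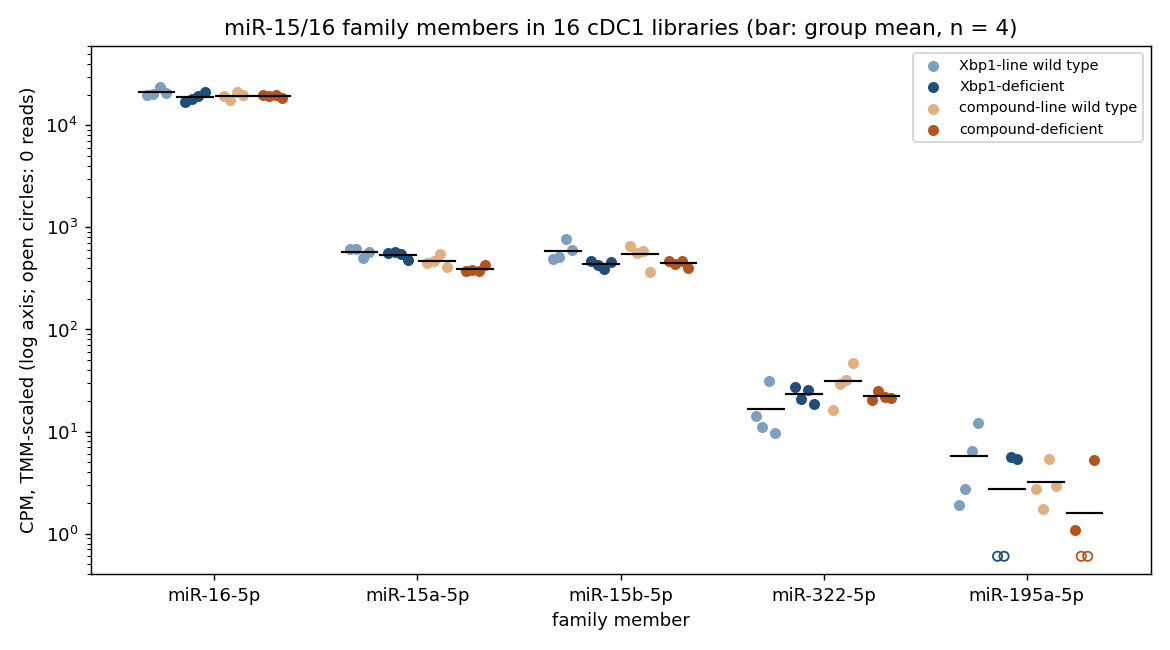
CPM of each family member (log axis) in the 16 libraries, 1 point per library in 4 colours for the groups, with a bar at each group mean (n = 4) and open circles for libraries with 0 reads. miR-16-5p lies between 16973 and 23862 CPM, miR-15a-5p and miR-15b-5p between 369 and 772 CPM, miR-322-5p below 47.3 CPM or at it, and miR-195a-5p at 12.1 CPM or less.

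miR-16-5p, the most abundant member, stood in Xbp1-line wild-type cells at 19892, 20118, 23862 and 20816 CPM (replicates 4, 5, 6 and 8). Xbp1-deficient cells had it at 16973, 18127, 19238 and 21311 CPM (replicates 1 to 4). Replicate 6 was the highest of the wild type, and replicate 4 of the deficient cells lay inside the wild-type range. Compound-line wild-type libraries held 19232, 17571, 21446 and 19706 CPM and compound-deficient libraries 19976, 19290, 19779 and 18491 CPM (replicates 1 to 4 each). All 4 compound-deficient libraries lay within the range of their wild type.

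Group means of miR-16-5p were 21172 ± 1836 CPM (SD, n = 4) in wild-type cells of the Xbp1 line, 19489 ± 1594 in wild-type cells of the compound line, 19384 ± 661 after compound loss and 18912 ± 1847 in Xbp1-deficient cells. No neighbours in this order differed by more than the larger of their SDs. The log2 fold change was −0.16 (SE 0.10, 95% interval −0.38 to 0.05, adjusted p 0.489 in edgeR's quasi-likelihood test) in Xbp1-deficient against wild-type cells. In compound-deficient against wild-type cells it was −0.01 (SE 0.10, interval −0.22 to 0.21, edgeR adjusted p 0.971). The intervals leave room for changes down to 0.769-fold in the first comparison and between 0.856-fold and 1.16-fold in the second, so a 2-fold change in either direction lies outside both.

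miR-15a-5p, the partner of miR-16 on chromosome 14, was at 613, 614, 504 and 569 CPM in wild-type cells of the Xbp1 line and at 559, 569, 543 and 480 CPM in Xbp1-deficient cells. Compound-line libraries had it at 447, 468, 543 and 408 CPM in wild-type and at 378, 383, 377 and 428 CPM after compound loss. The compound-deficient libraries, 3 of which lay below every library of their wild type, were all below the 4 Xbp1-deficient ones. Replicate 4, the compound-deficient library highest in miR-15a-5p, was also the shallowest library, with 81 reads of it.

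The means of miR-15a-5p were 575 ± 51.9 CPM (SD, n = 4) in wild-type cells of the Xbp1 line, 538 ± 40.0 in Xbp1-deficient, 466 ± 56.9 in wild-type cells of the compound line and 392 ± 24.5 after compound loss. In this order the first pair differed by less than the larger SD and the other pairs by more. Against their own wild types, the log2 fold change was −0.10 (SE 0.14, interval −0.39 to 0.19, edgeR adjusted p 0.814) in Xbp1-deficient and −0.26 (SE 0.14, interval −0.56 to 0.04, edgeR adjusted p 0.347) in compound-deficient cells. Neither passed. With upper-quartile scaling the first turned to 0.018 and the second was −0.53 and passed (edgeR adjusted p 0.0226). In the second comparison 24 of 255 tested microRNAs then passed, against 15 in the main test. The median of all tested microRNAs moved from −0.07 to 0.06 and from 0.04 to −0.24.

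miR-15b-5p, the partner of miR-16 on chromosome 3, was at 487, 510, 772 and 596 CPM in wild-type cells of the Xbp1 line and at 469, 424, 394 and 456 CPM in Xbp1-deficient cells. All 4 deficient libraries lay below all 4 wild-type libraries, the closest being 469 against 487 CPM. In the compound line the wild type held 653, 561, 592 and 369 CPM and compound-deficient cells 469, 436, 470 and 402 CPM. There the groups overlapped, since wild-type replicate 4 was the lowest of the 8.

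The means of miR-15b-5p were 591 ± 129 CPM (SD, n = 4) in wild-type cells of the Xbp1 line, 544 ± 122 in wild-type cells of the compound line, 444 ± 32.6 after compound loss and 436 ± 33.4 in Xbp1-deficient cells. No neighbours in this order differed by more than the larger of their SDs. The log2 fold change in Xbp1-deficient cells was −0.44 (SE 0.18, interval −0.82 to −0.06), with an unadjusted p of 0.0257 and an edgeR adjusted p of 0.236, so it did not pass. Without wild-type replicate 6, the library of 772 CPM, it was −0.28 (edgeR adjusted p 0.607). In compound-deficient cells the log2 fold change was −0.29 (SE 0.18, interval −0.67 to 0.10, edgeR adjusted p 0.462). It was −0.47 (edgeR adjusted p 0.0925) without wild-type replicate 4, the library of 369 CPM, and −0.19 without wild-type replicate 1, the library of 653 CPM.

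miR-322-5p, the mouse counterpart of human miR-424, was scarce, with 4 to 32 reads per library. It was at 14.2, 11.0, 31.2 and 9.69 CPM in wild-type cells of the Xbp1 line, 27.0, 20.8, 25.7 and 18.8 CPM in Xbp1-deficient cells, 16.3, 29.3, 32.3 and 47.3 CPM in wild-type cells of the compound line, and 20.4, 25.0, 22.0 and 21.1 CPM after compound loss. All 4 ranges overlapped, and both wild types spread more widely than the deficient groups. Means were 31.3 ± 12.7 CPM (SD, n = 4) in the compound-line wild type, 23.1 ± 3.93 in Xbp1-deficient, 22.1 ± 2.02 in compound-deficient and 16.5 ± 9.98 in Xbp1-line wild-type cells, and no neighbours in this order differed by more than the larger SD.

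The log2 fold change of miR-322-5p was 0.47 (SE 0.42, interval −0.41 to 1.35, edgeR adjusted p 0.681) in Xbp1-deficient and −0.49 (SE 0.44, interval −1.42 to 0.43, edgeR adjusted p 0.646) in compound-deficient cells. Each interval holds a 2-fold change in 1 direction. The first value was 0.96 without Xbp1-line wild-type replicate 6, the only library of that group above 14.2 CPM, and 0.30 without replicate 5. The second was −0.32 without compound-line wild-type replicate 4, the library of 47.3 CPM.

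miR-195a-5p, the near-copy of miR-16-5p from chromosome 11, had 2, 3, 5 and 5 reads in the Xbp1-line wild-type libraries and 0, 0, 7 and 4 in the Xbp1-deficient ones. In the compound line it had 1, 1, 5 and 1 reads in wild-type and 1, 0, 0 and 1 in deficient libraries. A count of 0 allows up to 3 reads, which is 2.90 and 3.12 CPM in Xbp1-deficient replicates 1 and 2 and 8.33 and 5.51 CPM in compound-deficient replicates 2 and 3 (counting error only). Group sums were 15, 11, 8 and 2 reads in the order given, and the compound line was sequenced less deeply. No difference was tested in the main fit. The fit without a filter and limma included miR-195a-5p, but only the members that passed the filter were read from them.

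Counted over the family, 0 of the 4 tested members passed in Xbp1-deficient against wild-type cells in edgeR, where 2.35% of the 255 tested microRNAs passed. At an unadjusted p under 0.05 stood 1 member, miR-15b-5p, against 15.7% of all tested. The CPM ranges of the groups were separate for that same member alone, against 11.8% of all tested. The median log2 fold change of the 4 members was −0.13, beside −0.07 over all tested, with 3 members below 0 and 1 above. In compound-deficient against wild-type cells 0 of 4 passed in edgeR, beside 5.88% of all tested, and 0 had an unadjusted p under 0.05, beside 20.0%. Ranges were separate for 0 of 4, beside 9.80%. All 4 values were below 0 there, with a median of −0.27 beside 0.04 over all tested. DESeq2 and limma on the deposited log2 values also called 0 of these 4 members in both comparisons. Over all tested, DESeq2 called 18 and 24 of 255 microRNAs and limma 7 and 16 of 473.

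**Figure D2:**
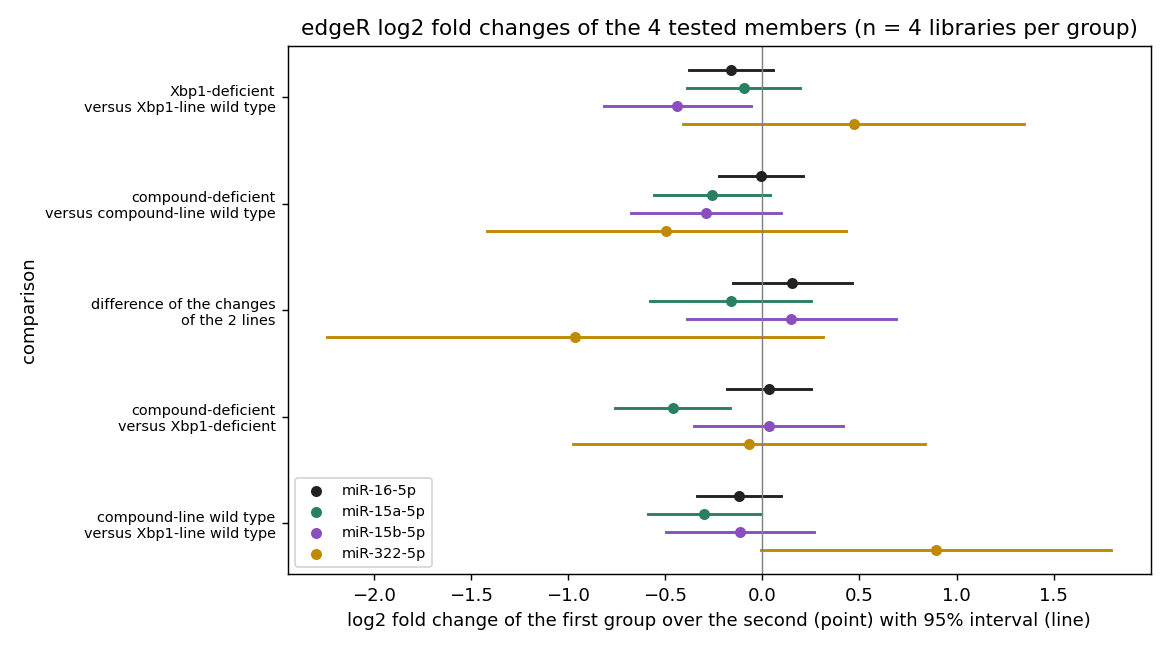
Log2 fold change (horizontal axis) of the 4 tested members in the 5 comparisons, with points for the edgeR estimate and lines for its 95% interval, n = 4 libraries per group. The interval excludes 0 for miR-15b-5p in the top comparison and for miR-15a-5p in the lowest pair, where it ends at −0.17 and −0.01, and those of miR-322-5p are the widest.

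Whether compound loss changed a member differently from loss of Xbp1 alone was tested as the difference of both changes. It was −0.16 (SE 0.20, interval −0.58 to 0.25) for miR-15a-5p and 0.15 (SE 0.26, interval −0.39 to 0.69) for miR-15b-5p. For miR-16-5p it was 0.16 (SE 0.15, interval −0.15 to 0.46) and for miR-322-5p −0.96 (SE 0.61, interval −2.24 to 0.31). The edgeR adjusted p lay between 0.706 and 0.924, and 0 of 4 members passed or had an unadjusted p under 0.05, beside 0% of all tested that passed and 10.2% that had such a p. DESeq2 and limma called 0 members, although DESeq2 gave no adjusted p for miR-322-5p. Over all tested, DESeq2 called 5 of 255 microRNAs and limma 0 of 473. The signs for miR-15b-5p and miR-16-5p turned with upper-quartile scaling, to −0.26 and −0.24.

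Single libraries moved these differences. That of miR-15a-5p was −0.080 without compound-line wild-type replicate 3, −0.10 without Xbp1-line wild-type replicate 6, −0.25 without compound-line wild-type replicate 4 and −0.26 without Xbp1-deficient replicate 4. That of miR-15b-5p ran from −0.027, without compound-line wild-type replicate 4, to 0.25, without replicate 1 of that group, and that of miR-16-5p from 0.039, without Xbp1-deficient replicate 1, to 0.20. For miR-322-5p it was −1.45 without Xbp1-line wild-type replicate 6.

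Set directly against Xbp1-deficient cells, compound-deficient cells had all 4 libraries lower in miR-15a-5p, 377 to 428 against 480 to 569 CPM. The log2 fold change was −0.46 (SE 0.14, interval −0.76 to −0.17), that is 0.726-fold, with an unadjusted p of 0.00401 and an edgeR adjusted p of 0.0511, just outside the threshold of 0.05. In edgeR 0 of 4 members passed here, beside 7.45% of all tested microRNAs, and 1 had an unadjusted p under 0.05, beside 17.3%. Ranges were separate for 1 of 4 members and 11.8% of all tested. The median of the 4 members was −0.02, beside 0.13 over all tested. DESeq2 did call miR-15a-5p, at −0.52 with an adjusted p of 0.00253, and called 32 of the 255 tested microRNAs, against 19 in edgeR. With limma on the deposited log2 values it was not called, at −0.51 with an adjusted p of 0.0765, and 11 of 473 microRNAs were. The adjustment covered 473 microRNAs in limma and 808 in the fit without a filter, so adjusted values of these fits are not directly comparable with the others. Over all alternatives the adjusted p ran from 0.00253 to 0.267. The highest came when the log2 total count of each library entered the fit, a choice made after seeing the data, which gave −0.40. Total counts were higher in the Xbp1 line. Each deficient genotype belongs to its own line, so that line and genotype cannot be told apart in this comparison.

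The wild types of both lines, which contribute any difference between the lines themselves, gave −0.30 (SE 0.14, interval −0.59 to −0.01, unadjusted p 0.0456, edgeR adjusted p 0.492) for miR-15a-5p, compound line against Xbp1 line. The difference between the deficient genotypes thus stood beside a smaller one of the same sign between their wild types, and the former exceeds the latter by the difference of −0.16 given above, which single libraries moved. Of the other members, miR-16-5p and miR-15b-5p gave 0.04 (interval −0.18 to 0.25) and 0.03 (interval −0.35 to 0.42) between the deficient genotypes, with signs that turned under other scalings, and miR-322-5p gave −0.07 (interval −0.97 to 0.84). Between the wild types they gave −0.12 (interval −0.34 to 0.10), −0.12 (interval −0.50 to 0.26) and 0.90 (SE 0.43, edgeR adjusted p 0.492). The value for miR-322-5p rests on 55 and 69 reads per group and was 1.39 without Xbp1-line wild-type replicate 6. In edgeR 0 of 4 members passed between the wild types, beside 0% of all tested, 1 member had an unadjusted p under 0.05, beside 9.41%, and ranges were separate for 0 of 4, beside 4.31%. DESeq2 and limma called 0 of the 4 members, while over all tested DESeq2 called 4 of 255 microRNAs and limma 0 of 473.

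**Figure D3:**
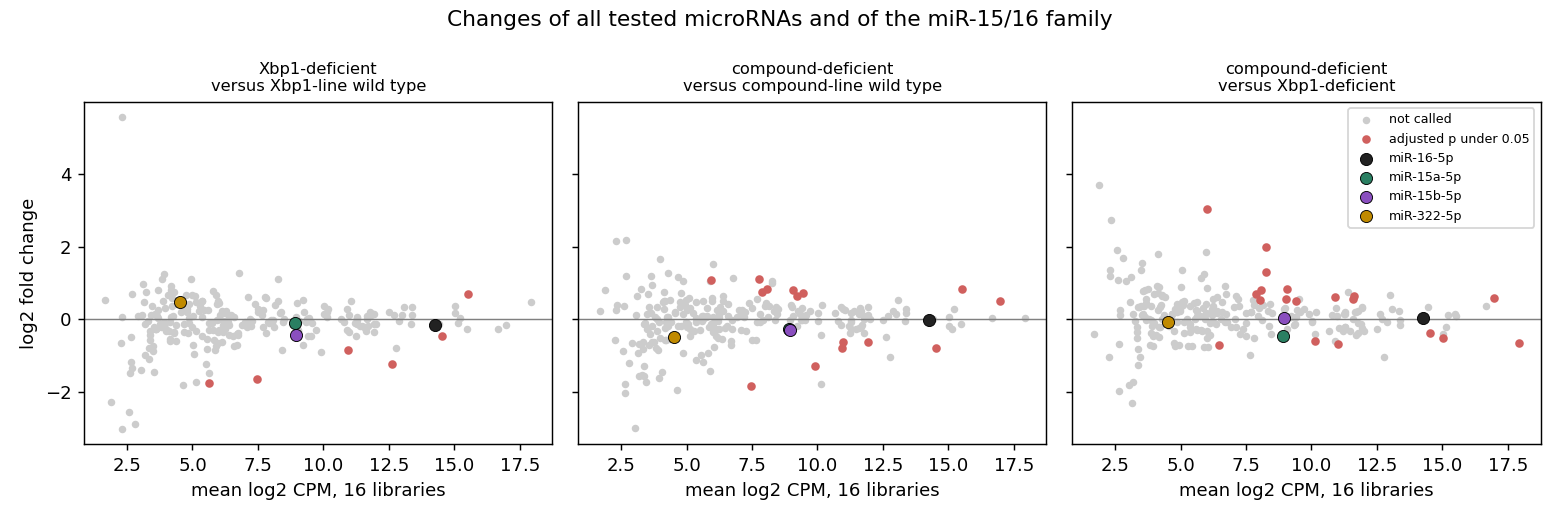
Log2 fold change against mean log2 CPM over the 16 libraries for the 255 tested microRNAs in 3 comparisons, grey where not called, red where the edgeR adjusted p was under 0.05, and larger coloured points for the 4 tested members. The members lie within the cloud of uncalled microRNAs, and miR-15a-5p at −0.46 in the right panel lies at its lower side. In the middle panel miR-15b-5p (−0.29) covers miR-15a-5p (−0.26).

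Ratios of members within a library do not depend on the scaling between libraries. Per 1000 reads of miR-16-5p there were 27.4 ± 4.51 reads of miR-15a-5p (SD, n = 4) in wild-type cells of the Xbp1 line, 28.8 ± 4.61 in Xbp1-deficient, 24.0 ± 2.59 in wild-type cells of the compound line and 20.2 ± 1.98 after compound loss. The ranges were 22.5 to 32.9 in Xbp1-deficient and 18.9 to 23.1 in compound-deficient cells, which overlap. For miR-15b-5p there were 27.7 ± 3.57, 23.2 ± 3.18, 28.1 ± 6.75 and 22.9 ± 0.931 reads per 1000 of miR-16-5p in the same order of groups. The 4 compound-deficient libraries, at 21.7 to 23.8, were the most alike, and the compound-line wild type spread from 18.7 to 34.0.

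Between miR-15a-5p and miR-15b-5p there was no fixed order, since miR-15a-5p had more reads in 8 of the 16 libraries. It had more in 4 of 4 Xbp1-deficient, 2 of 4 Xbp1-line wild-type, 1 of 4 compound-line wild-type and 1 of 4 compound-deficient libraries. The ratio of miR-15a-5p to miR-15b-5p was 1.02 ± 0.277 (SD, n = 4) in wild-type cells of the Xbp1 line, 1.24 ± 0.149 in Xbp1-deficient, 0.885 ± 0.175 in wild-type cells of the compound line and 0.888 ± 0.124 after compound loss. Xbp1-deficient libraries ran from 1.05 to 1.38 and compound-deficient ones from 0.801 to 1.07, so they met only at their ends.

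**Figure D4:**
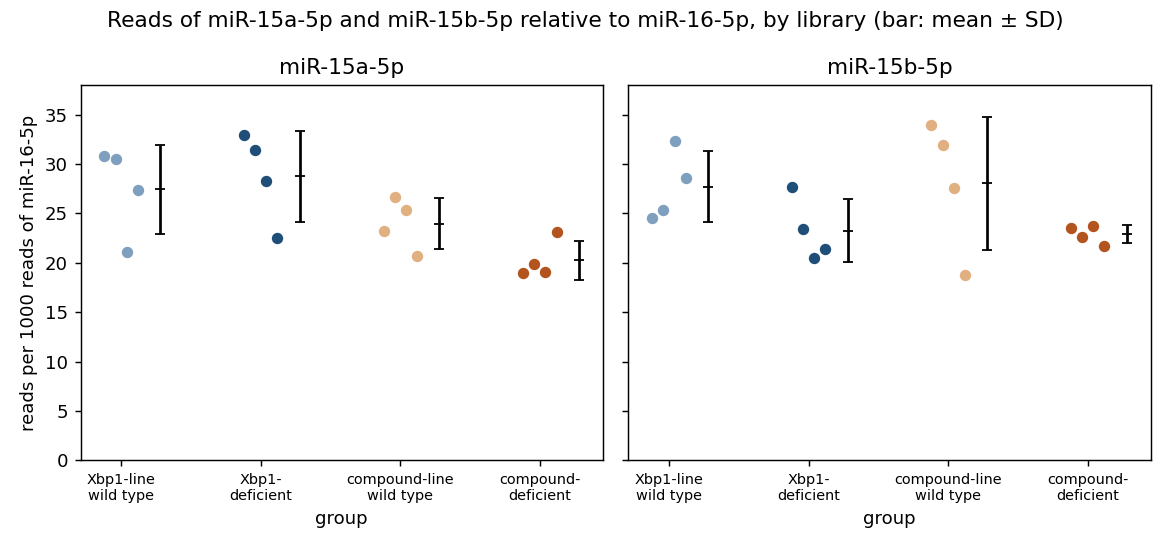
Reads of miR-15a-5p (left) and miR-15b-5p (right) per 1000 reads of miR-16-5p in each library, by group, with the mean ± SD beside the points (n = 4). The compound-deficient libraries lie between 18.9 and 23.1 on the left and between 21.7 and 23.8 on the right, and the other groups spread more widely.

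The precision behind these values differs by member. Within groups, chi-square per degree of freedom against pure counting noise was 97.7 for miR-16-5p, 9.54 for miR-15b-5p, 2.68 for miR-15a-5p, 2.11 for miR-195a-5p and 1.77 for miR-322-5p, beside a median of 5.84 over all tested. The spread of miR-16-5p was thus far above counting noise and that of miR-322-5p less so. This measure grows with the number of reads, 228455 of miR-16-5p and 262 of miR-322-5p in all. It therefore does not rank the members by their spread between libraries. The coefficient of variation between libraries that edgeR fitted was 12.9% for miR-16-5p, 14.8% for miR-15a-5p, 19.1% for miR-15b-5p and 31.5% for miR-322-5p, against 31.2% in common for all tested.

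Across the 16 libraries the members did not follow each other closely. Pearson's r of log2 CPM was 0.51 between miR-15b-5p and miR-16-5p (Spearman's rho 0.43), 0.23 between miR-15a-5p and miR-15b-5p (rho 0.26) and 0.04 between miR-15a-5p and miR-16-5p (rho 0.14), as descriptions of libraries that share group and scaling. For miR-322-5p r was −0.40 with miR-15a-5p, −0.20 with miR-15b-5p and −0.062 with miR-16-5p. After group means were removed, r was 0.33 between miR-15b-5p and miR-16-5p, −0.10 between miR-15a-5p and miR-15b-5p and −0.42 between miR-15a-5p and miR-16-5p. Among the 254 other tested microRNAs the one most like miR-15a-5p was MIMAT0000133, with r = 0.89 (rho 0.86) and, after group means were removed, r = 0.64, followed by MIMAT0004651 (r = 0.80) and MIMAT0000154 (r = 0.80). The highest r for miR-16-5p was 0.74, for miR-15b-5p 0.72 and for miR-322-5p 0.75, and none of the 3 closest to any member was a member itself. Among the 254 others, miR-15b-5p ranked 11 in likeness to miR-16-5p, and miR-16-5p ranked 25 in likeness to miR-15b-5p. All other pairs of members ranked between 75 and 234.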

How the data were processed

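The 16 small RNA libraries were made, per the labels' protocols, from 5000 to 50000 sorted cells with the TruSeq small RNA kit. Tools named in the submitters' processing notes are Bowtie 1.1.2, limma 3.42.2, cutadapt 1.8.1 and FastQC 0.11.3, and mm10 and GRCm38 are the builds; no roles are stated. The authors deposited raw counts for 853 microRNAs, and log2 values for 473 of them. From the values, the deposited log2 table is the log2 CPM of the count plus 0.5 on TMM-scaled library sizes, which recomputed values matched to within 4.97e-14. No source used here gives molecular identifiers, so reads may include PCR copies and the limits given for counts of 0 cover counting error only.

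The main test was edgeR 4.0.16 (R 4.3.3), run on raw counts with TMM scaling and filterByExpr by group with a count minimum of 10, which kept 255 microRNAs holding at least 99.9% of each library's counts, 1 quasi-likelihood fit of 4 group means without a replicate block, two-sided F tests in 5 comparisons, and Benjamini-Hochberg adjustment over all 255 with a threshold of 0.05. Each standard error is the absolute log2 fold change divided by the root of its F value. The log2 CPM used a prior count of 1. The steps were tested on simulated data, for false calls and for the recovery of changes larger than those of the members. That check does not cover changes as small as those of the members. Groups and replicate numbers came from the sample descriptions.

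Alternatives were DESeq2 size factors, upper-quartile scaling, total counts alone, no filter, DESeq2 1.42.0, limma 3.58.1 on the deposited log2 values, the compared groups alone, the replicate block, leaving out each library and, added after seeing the data, the log2 total count as a covariate. The members and lists were chosen with earlier results of these data known. Named were the 5 members and, by the highest Pearson r, the microRNAs most like them, printed by identifier for miR-15a-5p. The 18 listed relatives and 16 cell type markers were left out, since 0 identifiers had a name in the reference tables.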

Additional observations from a re-analysis of the deposited data

Results flagged for a closer look

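In 36 sets of 4 values, the CPM of each member, the family's share and 3 ratios between members in each group, 1 library stood far from the others. Among compound-deficient libraries, replicate 4 held miR-15a-5p at 428 CPM and the remaining 3 at 377 to 383 CPM. On log2 CPM its gap was 0.859 of the range of the group, which exceeds the 95% critical value of Dixon's test. About 1 in 20 groups would do so by chance. That library was the shallowest of all, with 175165 counts and 81 reads of miR-15a-5p. Its part in the comparison with Xbp1-deficient cells was measured: without it the log2 fold change of miR-15a-5p was −0.50 (edgeR adjusted p 0.0855), against −0.46 with it.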

How the results depend on the processing

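Over 20 fold changes of members and 356 recomputed values, 324 kept their sign and did not change their call, 27 changed sign and 5 passed that had not. The 324 include 2 DESeq2 values of miR-322-5p without an adjusted p, the difference of the changes and the deficient genotypes, for which only the sign was compared. Those that changed sign were at most 0.16 in size in the main test and had an adjusted p of at least 0.263 after the change. The 5 all concern miR-15a-5p. Against Xbp1-deficient cells, where the count of members called was then 1 in place of 0, it passed with DESeq2 size factors (−0.51, edgeR adjusted p 0.0321), upper-quartile scaling (−0.70, adjusted p 0.00481), DESeq2 (−0.52, adjusted p 0.00253) and without Xbp1-deficient replicate 4 (−0.53, edgeR adjusted p 0.0461). Of all 255 tested microRNAs these settings called 24, 26, 32 and 21 in this order, against 19 in the main test. Leaving out single libraries gave −0.53 to −0.44 and 0 to 1 members called. Of all 255 tested microRNAs 0, 0, 9 and 21 were called without Xbp1-deficient replicates 1, 2, 3 and 4. Without compound-deficient replicates 1, 2 and 3 the calls were 20, 1 and 1. Against its wild type it passed in compound-deficient cells with upper-quartile scaling alone (1 called, −0.53, edgeR adjusted p 0.0226). Of all 255 tested microRNAs 24 passed there, against 15 in the main test. That scaling moved the median of all tested microRNAs from 0.04 to −0.24, and relative to this median miR-15a-5p stood at −0.30 before and −0.29 after. Between the deficient genotypes it moved the median from 0.13 to −0.11, with miR-15a-5p at −0.59 relative to either.

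With upper-quartile scaling miR-15a-5p in Xbp1-deficient cells turned to 0.018, the differences of the changes of miR-15b-5p and miR-16-5p to −0.26 and −0.24, both members between the deficient genotypes to −0.21, and between the wild types to 0.042 and 0.034. Between the deficient genotypes miR-15b-5p and miR-16-5p also turned with DESeq2 size factors (−0.017 and −0.0090), no filter (−0.13 and −0.12), DESeq2 (−0.014 and −0.0089) and limma (−0.026 and −0.017), and lay between −0.052 and 0.075 and between −0.050 and 0.082 with single libraries left out. Leaving out libraries also turned miR-16-5p in compound-deficient cells (−0.10 to 0.041) and miR-15b-5p in the difference of the changes (−0.027 to 0.25) and between the wild types (−0.21 to 0.039). The cause was not tested.

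With the replicate number as a block, members called stayed at 0 in the 2 comparisons whose groups share all 4 numbers, with miR-15a-5p at −0.28 against wild type and −0.46 between the deficient genotypes. The groups of the other pairwise comparisons share only 1 number, too few for a block. Over all tested microRNAs the block called 4 and 9, against 6 and 7 in the same libraries without it. Same-numbered libraries correlated between −0.26 and 0.26 and between −0.07 and 0.10, and not every library correlated best with its own number, so the numbers were not taken as pairs. Depth limits miR-322-5p and miR-195a-5p most.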
